A study of Homo sapiens with 6 samples.

Results

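The 9 genes described here encode proteins of the tight junction: the claudins CLDN1, CLDN4, CLDN7 and CLDN12, the MARVEL-domain proteins OCLN (occludin) and MARVELD2 (tricellulin), the immunoglobulin-type adhesion molecule F11R (also called JAM-A), and the scaffold proteins TJP1 (ZO-1) and TJP3 (ZO-3). They were taken by symbol from the 58735 genes of the deposited table, and all 9 were found once. Tight junctions join neighbouring epithelial cells into a sheet and limit the passage of water, ions and molecules between them. Claudins form the strands that seal or selectively open this path, occludin and tricellulin lie within the strands, and the ZO proteins tie them to the actin cytoskeleton. In the epidermis functional tight junctions lie in the granular layer, and CLDN1 is known to be required for the barrier against water loss.

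RNA was sequenced from HaCaT, a spontaneously immortalised human keratinocyte line labelled as wild type, in 3 control libraries and 3 libraries of cells treated for 48 h with dacomitinib, a covalent kinase inhibitor that blocks EGFR and its relatives. According to the design text, cells were at 70% confluence when treatment began, and 0.1% DMSO is named for the experimental group only. No source used here gives the drug dose or says what the controls received. The dacomitinib columns carry a letter that stands in no label and were assigned by elimination, so every direction below rests on that assignment. No label says that replicates were grown as separate cultures, and the p-values therefore cover only the spread among these libraries, which may be technical.

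Between 14960650 and 16179273 fragments per library fell on genes. Mitochondrial genes took 7.38% to 8.08% of them in controls and 4.61% to 4.90% with dacomitinib, and 23580 to 24131 genes had a fragment in controls against 25693 to 25715 with dacomitinib. All 12 keratinocyte markers examined, KRT5, KRT14 and TP63 among them, passed the expression limit, with a summed level of 1483 to 1558 FPKM in controls and 1236 to 1432 FPKM with dacomitinib. The sum does not stand for each marker. In the test described below, 6 of the 12 were higher and 4 lower, against 25.4% and 34.8% of all tested genes. With TPM, a scaling also described below, 7 were higher and 2 lower, against 42.0% and 19.8%. FPKM is the number of fragments per kilobase of gene, divided by a size set for each library. That size was 0.946 to 0.954 times the fragments on genes in controls and 1.05 to 1.09 times with dacomitinib. At equal fragments per depth, FPKM is therefore lower with dacomitinib. Of 21 markers of fibroblasts, endothelial cells, melanocytes and immune cells, 2 passed the limit, CDH5 and COL3A1, the latter through the dacomitinib libraries. The summed level of the 21 was 4.28 to 5.57 FPKM in controls and 15.9 to 19.8 FPKM with dacomitinib, and COL1A2, PDGFRA, KDR and TYR had 0 fragments in all 6 libraries. CDH5, an endothelial cadherin, made up most of the difference, at 1.149 ± 0.08 FPKM in controls and 10.01 ± 1.39 FPKM with dacomitinib (SD, n = 3). VWF, of endothelium, was at 0.333 ± 0.05 and 1.19 ± 0.03 FPKM, and PECAM1 at 0.474 ± 0.18 and 0.793 ± 0.16 FPKM. DCN, of fibroblasts, was at 0.0197 ± 0.01 and 0.897 ± 0.31 FPKM, and COL3A1 at 0.705 ± 0.07 and 1.515 ± 0.21 FPKM. The groups overlapped for PECAM1 alone of these 5. LUM, also of fibroblasts, was at 0.00783 ± 0.01 and 0.282 ± 0.08 FPKM, and its groups did not overlap. It had 1 fragment in the controls together and 43 with dacomitinib. Not every fibroblast marker rose: COL1A1 was at 0.330 ± 0.12 and 0.216 ± 0.13 FPKM, with groups that overlapped. VIM had 3 fragments in the controls together and 0 with dacomitinib. CLDN5, the claudin typical of endothelium, had 6 fragments in the controls together and 0 with dacomitinib. The part of these markers and library measures in the results below was not tested. In bulk RNA, a changed number of cells of one kind and a changed amount of RNA per cell cannot be told apart.

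Of the 9 tight junction genes, 4 rose with dacomitinib (TJP3, CLDN1, TJP1 and F11R), 1 fell (CLDN4), and 4 did not pass the test (OCLN, MARVELD2, CLDN7 and CLDN12). The test was limma on log2(FPKM + 1) across all genes with a mean of at least 1 FPKM, a limit that all 9 passed, with a Benjamini-Hochberg adjusted p threshold of 0.05. Of the 13748 genes tested, 25.4% were called higher and 34.8% lower, 60.2% in all, against 5 of the 9. The median difference of the 9 genes, dacomitinib minus control, was 0.24 on the log2 scale, against -0.06 over all tested genes. In FPKM the dacomitinib libraries lay wholly above the controls for 4 of the 9 genes and wholly below for 2, against 28.9% and 38.2% of all tested genes (67.1% in either direction). The calls of OCLN, CLDN7 and CLDN12 depend on the scaling between libraries: with TPM, which brings the length-scaled values of each library to the same sum, 7 of the 9 genes were called higher and 1 lower, against 42.0% and 19.8% of all tested genes.

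**Figure D1:**
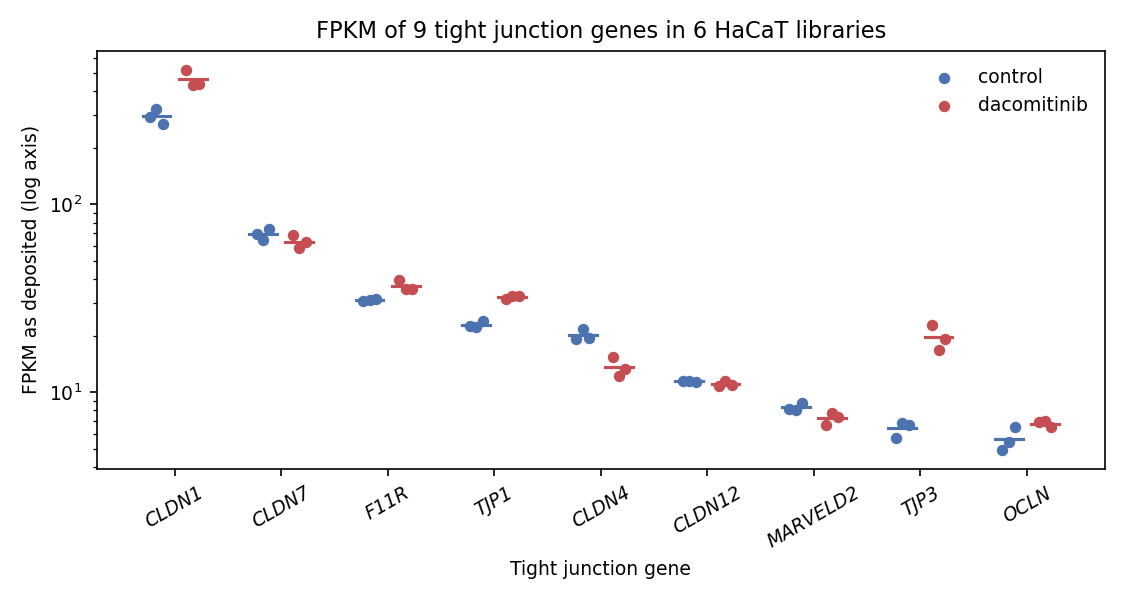
FPKM of each tight junction gene (log axis) in the 3 control libraries (blue points) and the 3 dacomitinib libraries (red points), with a bar at each group's mean. CLDN1 is the most abundant in both groups, and TJP3 shows the widest gap between groups, from 5.69 to 6.84 FPKM in controls and from 16.7 to 22.9 FPKM with dacomitinib.

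CLDN1 was by far the most abundant of the 9 transcripts, and it rose further with dacomitinib. Its level was 293, 322 and 266 FPKM in the controls and 521, 430 and 435 FPKM in the dacomitinib libraries. Every dacomitinib library lay above every control. The log2 difference was 0.65 (SE 0.10, limma adjusted p = 0.00154), from 294 ± 28.0 to 462 ± 50.7 FPKM (SD, n = 3). The gene lies on the minus strand of chromosome 3 (190305701 to 190322475, GRCh38), shares no exonic base with another gene in GENCODE release 29, and had 47722 fragments in the controls together and 85802 with dacomitinib.

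CLDN16, a claudin known for magnesium reabsorption in the kidney and not one of the 9, starts 66 bases from the start of CLDN1 on the opposite strand, and it was higher as well. Its level was 2.88, 3.53 and 3.15 FPKM in controls and 7.724, 8.496 and 8.307 FPKM with dacomitinib, a log2 difference of 1.13 (SE 0.08, limma adjusted p = 3.625e-05). The groups did not overlap. Per kilobase, CLDN1 remained far above its neighbour in every library. The stretch between the annotated exons of both genes (chr3:190322476-190322540, GRCh38.p14, RefSeq promoter table, read on the CLDN1 strand) is shown because it is the only sequence that separates their starts. Its capitals mark matches to GGGCGG or its reverse complement CCGCCC, the box bound by SP and KLF factors:
CLDN1 to CLDN16: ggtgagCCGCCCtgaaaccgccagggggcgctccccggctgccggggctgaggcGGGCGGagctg
The matches begin at positions -88 and -40 from the RefSeq start of CLDN1. The same letters occur on either strand in 42.6% of all 35116 RefSeq windows of 250 bases before a gene start, so their presence here is common.

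CLDN4, a barrier-forming claudin also found in simple epithelia, moved the other way. It was at 19.3, 21.6 and 19.5 FPKM in controls and 15.5, 12.2 and 13.3 FPKM with dacomitinib. Every dacomitinib library was below every control, and the log2 difference was -0.53 (SE 0.09, limma adjusted p = 0.0022). The gene lies on chromosome 7 (73799542 to 73832693, plus strand, GRCh38). Its genomic neighbour CLDN3 had 3 fragments in the controls together and 1 with dacomitinib.

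The window of 250 bases before the RefSeq start of CLDN4 is the only one among the 9 genes with a match to TGANTCA, the letters of the AP-1 site, which reads the same on both strands. The 8 genes with an entry (F11R had none) have 14 windows, of which 1 held a match, against 6.57% of all windows. The 2 matches are printed with their flanks, capitals marking the match:
CLDN4 upstream match (chr7:73830746-73830771): ctgggctgTGATTCAgtgtctgtctc
CLDN4 downstream match (chr7:73830824-73830852): agactggatagTGACTCAgggacccgggg
They begin at positions -242 and -161 from the RefSeq start, within an exon of longer CLDN4 transcripts in GENCODE release 29. A match of letters is not evidence that a factor was bound.

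CLDN7, which binds the adhesion molecule EPCAM, was the next most abundant of the 9 after CLDN1. It was at 69.8, 64.7 and 73.7 FPKM in controls and 68.3, 58.9 and 62.9 FPKM with dacomitinib. The ranges overlapped, and the log2 difference of -0.13 did not pass (95% confidence interval -0.30 to 0.04, limma adjusted p = 0.160). CLDN7 lies on chromosome 17 (7259903 to 7263983, minus strand) and shares 12.3% of its exonic bases with other genes, mostly AC003688.1.

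CLDN12, a claudin without the usual C-terminal motif that binds ZO proteins, had the smallest difference of the 9 in FPKM. Its values were 11.5, 11.5 and 11.3 FPKM in controls and 10.8, 11.5 and 10.9 FPKM with dacomitinib, and the groups overlapped. The difference was -0.05 with a 95% confidence interval of -0.16 to 0.06 (limma adjusted p = 0.377). The spread between controls, a coefficient of variation of 1.05%, was below the 2.96% that counting of its fragments alone would give. CLDN12 lies on chromosome 7 (90383721 to 90513402, plus strand) and overlaps GTPBP10, and 16.3% of its exonic bases are shared with other genes.

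The mix of claudin transcripts shifted toward CLDN1. Over all 24 claudin genes of the table, the summed level was 402 ± 25.5 FPKM in controls and 566 ± 55.3 FPKM with dacomitinib (SD, n = 3). CLDN1 made up 73.2%, 75.3% and 70.6% of that sum in controls and 82.7%, 81.3% and 80.9% with dacomitinib. The share of CLDN7 went from 17.4 ± 2.22% to 11.2 ± 0.42%, that of CLDN4 from 5.01 ± 0.18% to 2.41 ± 0.09%, and that of CLDN12 from 2.86 ± 0.16% to 1.97 ± 0.23% (SD, n = 3). None of these 4 shares overlapped between groups. Shares do not depend on the scaling between libraries, and a share falls when CLDN1 rises even if the other level stays the same.

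**Figure D2:**
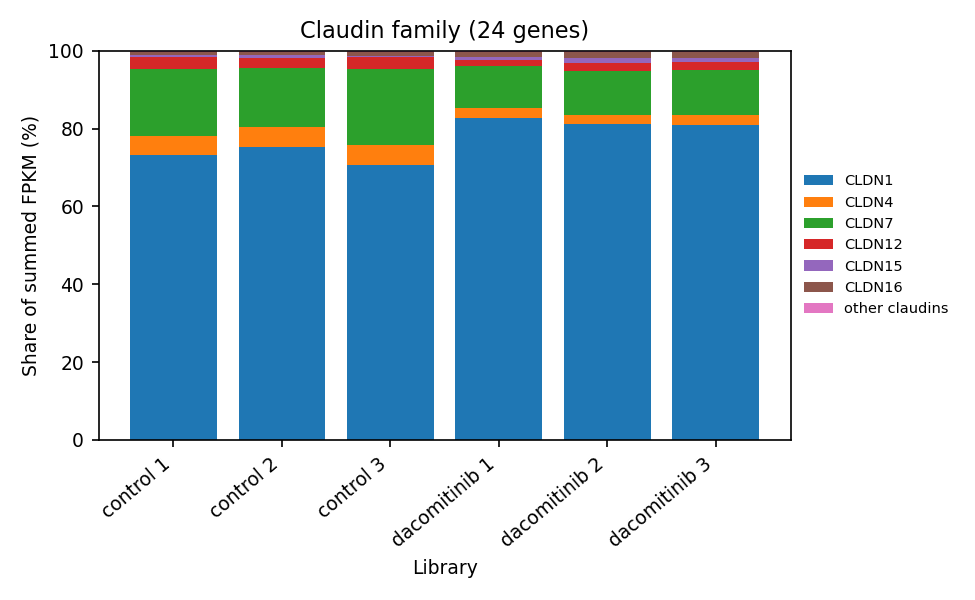
Share of the summed FPKM in each library, in percent, for the claudin family (24 genes), stacked by gene. CLDN1 takes 70.6% to 75.3% of the claudin sum in controls and 80.9% to 82.7% with dacomitinib.

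Of the other 20 claudin genes, CLDN16 and CLDN15 passed the expression limit. CLDN15, known for cation channels of the intestine, was at 2.515, 3.295 and 1.599 FPKM in controls and 4.256, 6.251 and 5.303 FPKM with dacomitinib, a log2 difference of 0.87 (SE 0.20, limma adjusted p = 0.00909). The groups did not overlap, although the spread among the controls was wider than the gap between the groups. The remaining 18 were below the limit: 4 had 0 fragments in all libraries, and 11 had between 1 and 20 in total. CLDND1, a claudin-domain relative, was at 27.2 ± 2.11 FPKM in controls and 29.5 ± 1.86 FPKM with dacomitinib (SD, n = 3) and did not pass (difference 0.12, SE 0.07, limma adjusted p = 0.207).

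OCLN, the first tight junction membrane protein to be described, had the lowest mean of the 9 in both groups. It was at 4.94, 5.43 and 6.53 FPKM in controls and 6.90, 6.99 and 6.51 FPKM with dacomitinib. One control, the third, reached the level of the lowest dacomitinib library, and the difference of 0.24 (95% confidence interval 0.02 to 0.46) did not pass (limma adjusted p = 0.0617). Without that control it was 0.34 and passed (limma adjusted p = 0.00885). OCLN lies on chromosome 5 (69492292 to 69558104, plus strand, GRCh38). Of the distinct 75-base stretches of its transcripts, 7.01% also occur in other genes, mostly in the copy OCLNP1, so its level is uncertain to that extent.

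MARVELD2 concentrates where 3 cells meet. It lies 47962 bases from OCLN on the same strand of chromosome 5 (69415065 to 69444330), with no other protein-coding gene between. Its values were 8.187, 8.0 and 8.809 FPKM in controls and 6.71, 7.73 and 7.38 FPKM with dacomitinib. The groups did not overlap, but the difference of -0.18 (SE 0.07) did not pass (limma adjusted p = 0.0576), and it was 0.12 with TPM (limma adjusted p = 0.325). Without the second dacomitinib library it passed (difference -0.22, limma adjusted p = 0.0459). The total was 1979 fragments in each group.

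F11R, which binds its like on the neighbouring cell, rose by a small amount. It was at 30.5, 31.0 and 31.3 FPKM in controls and 39.4, 35.7 and 35.6 FPKM with dacomitinib. All dacomitinib libraries were above all controls, and the log2 difference was 0.25 (SE 0.05, limma adjusted p = 0.00537). F11R lies on chromosome 1 (160995211 to 161021348, minus strand). It shares 36.6% of its exonic bases with the overlapping gene AL591806.3, which had 9 fragments in the controls together and 14 with dacomitinib. No source used here says how fragments on shared bases, or on the opposite strand, were counted. If they were left out, the level per unshared base would be 48.8 FPKM in controls and 58.2 FPKM with dacomitinib.

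TJP3 showed the widest difference of the 9 genes. Its level was 5.69, 6.84 and 6.73 FPKM in controls and 22.8, 16.7 and 19.3 FPKM with dacomitinib. Even the lowest dacomitinib library was far above the highest control. The log2 difference was 1.47 (SE 0.12, limma adjusted p = 7.90e-05), with means of 6.42 ± 0.63 and 19.6 ± 3.07 FPKM (SD, n = 3), a ratio of 3.06. TJP3 lies on chromosome 19 (3708109 to 3750813, plus strand), shares no exonic base with another gene, and had 1202 fragments in the controls together and 4196 with dacomitinib.

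TJP1, the scaffold that binds claudins, occludin, F11R and actin, also rose. It was at 22.45, 22.32 and 24.04 FPKM in controls and 31.4, 32.6 and 32.6 FPKM with dacomitinib. The groups were well apart, and the libraries within each group lay close together. The log2 difference was 0.47 (SE 0.05, limma adjusted p = 0.000178). TJP1 lies on chromosome 15 (29699367 to 29968865, minus strand) and shares no exonic base with another gene.

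The sequences before a single start of TJP1 and a single start of TJP3 are printed because both genes moved together at different sizes. They come from the RefSeq promoter table (GRCh38.p14), and the 2 longer stretches are limited to bases outside every exon of GENCODE release 29. The 2 short TJP3 stretches lie within an annotated TJP3 exon and show the matches there with their flanks. Capitals mark GGGCGG or CCGCCC, and CAGGTG, the E-box letters bound by Snail-type factors:
TJP1 (chr15:29969050-29969299, minus strand): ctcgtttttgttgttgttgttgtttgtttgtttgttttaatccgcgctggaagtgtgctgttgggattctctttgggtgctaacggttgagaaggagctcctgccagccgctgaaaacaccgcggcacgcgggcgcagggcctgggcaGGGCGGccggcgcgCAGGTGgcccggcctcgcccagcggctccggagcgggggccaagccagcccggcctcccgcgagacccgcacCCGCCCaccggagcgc
TJP3 (chr19:3721487-3721616, plus strand): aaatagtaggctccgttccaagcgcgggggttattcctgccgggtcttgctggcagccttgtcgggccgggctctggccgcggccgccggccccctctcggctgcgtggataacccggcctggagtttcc
TJP3 GC box (chr19:3721681-3721708, plus strand): tgtctgggcagGGGCGGggctgacccga
TJP3 E-box (chr19:3721719-3721736, plus strand): aggaagaggggCAGGTGc
The TJP3 stretches precede the more downstream of its 2 RefSeq starts. CAGGTG or its reverse complement CACCTG occurred in 5 of the 14 windows, those of CLDN7, OCLN, TJP1 and TJP3, against 17.5% of all windows. OCLN has a match in each of its 2 overlapping windows. For TJP1, only the window before the most upstream of its RefSeq starts is printed, and that start lies outside the gene span given above. The windows before the more downstream TJP1 starts held no E-box match, although some of them held the GC box. No window of the 8 genes held AACCNGTT (the GRHL site, in 1.49% of all windows) or TGTTTAC (the FOXO site, 2.98%), searched on both strands. CLDN7 alone held CCGGAAGT (the ETS site, 3.42%).

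The order of the levels changed mainly through TJP3. In controls it ran CLDN1, CLDN7, F11R, TJP1, CLDN4, CLDN12, MARVELD2, TJP3 and OCLN. Only TJP3 and OCLN, at the end of the list, overlapped in their library values. With dacomitinib TJP3 stood in place 5 instead of 8, above CLDN4, CLDN12 and MARVELD2, and only MARVELD2 and OCLN overlapped. These ranks use FPKM with the full gene length. Per unshared base F11R, CLDN7 and CLDN12 would stand higher in value without a change of rank. With dacomitinib the mean of CLDN12 would then be 13.2 FPKM, within the 12.2 to 15.5 FPKM of the CLDN4 libraries.

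Among 10534 tested protein-coding genes outside the lists, the profiles nearest to TJP3 over the 6 libraries were those of BPIFB1 and CD55. The measure was the Euclidean distance between log2(FPKM + 1) values centred on the control mean, 0.176 and 0.209. CD55, a complement regulator, differed by 1.53 (SE 0.08) on that scale, with a ratio of mean FPKM of 3.71 against 3.06 for TJP3. BPIFB1, a secreted airway protein, had 14 fragments over the 3 controls, passed the expression limit through the dacomitinib libraries, and differed by 2.87 with TPM and 4.59 with voom, against 1.87 and 1.77 for TJP3.

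The scalings differed by a shift of all genes. The median difference of all tested genes was -0.06 with the deposited FPKM and 0.23 with TPM. With TPM the difference was 0.57 for F11R, 0.80 for TJP1 and -0.24 for CLDN4 (limma adjusted p = 0.0281), each over 1.5 times larger or smaller than with FPKM, and each kept its call. Relative to that median, CLDN1 stood at 0.71 and 0.73, TJP1 at 0.53 and 0.56, F11R at 0.30 and 0.33, OCLN at 0.30 and 0.34, and CLDN4 at -0.47 and -0.48 with the deposited scaling and with TPM. CLDN7 stood at -0.07 and -0.05, CLDN12 at 0.01 and 0.02, and MARVELD2 at -0.12 and -0.12. TJP3 was at 1.52 and 1.64; a pseudocount of 1 holds a low gene back less on the TPM scale. The order of the 9 genes was thus led by TJP3, CLDN1 and TJP1 and ended with CLDN4 under both scalings.

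**Figure D3:**
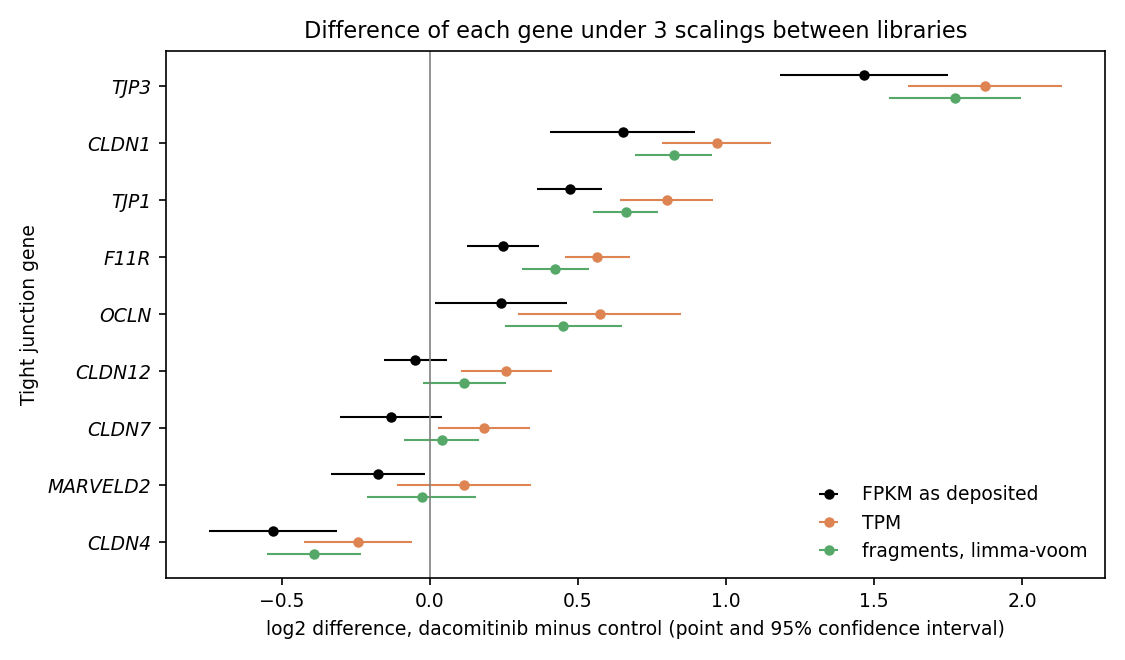
Log2 difference, dacomitinib minus control, of each tight junction gene with its 95% confidence interval from limma on deposited FPKM (black), on TPM (orange) and on recovered fragments with voom (green). TJP3, CLDN1, TJP1 and F11R lie right of 0 and CLDN4 left of 0 in all 3, while CLDN7 and CLDN12 lie left of 0 with FPKM (-0.13 and -0.05) and right of 0 with TPM (0.18 and 0.26).

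Genes listed as other membrane proteins of the tight junction moved in both directions. Of 12 examined, 5 passed the expression limit, 1 rose and 2 fell (3 and 0 with TPM), with a median of -0.13 against -0.06 over all tested genes. Shares of all tested genes were 25.4% higher and 34.8% lower (42.0% and 19.8% with TPM). The 1 that rose was MARVELD1, of the family of MARVELD2 but not counted among the MARVEL proteins of tight junctions. Its level went from 26.8 ± 1.23 to 36.1 ± 2.65 FPKM (SD, n = 3). MARVELD3, the remaining MARVEL protein of tight junctions, fell from 3.92 ± 0.08 to 2.85 ± 0.39 FPKM, a difference of -0.36 (limma adjusted p = 0.0121) that was -0.14 with TPM (limma adjusted p = 0.257). It shares 18.1% of its exonic bases with PHLPP2 on the opposite strand. CXADR, an adhesion molecule related to F11R, fell by 0.27 on the log2 scale (SE 0.07, limma adjusted p = 0.00971), but its difference was 0.01 with TPM (limma adjusted p = 0.901).

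Among 17 other cytoplasmic plaque and scaffold genes, 12 were tested, 4 rose and 4 fell (7 and 2 with TPM), with a median of 0.01. For comparison, 25.4% of all tested genes were higher and 34.8% lower (42.0% and 19.8% with TPM). AMOTL2, an angiomotin that binds tight junction scaffolds, rose from 20.8 ± 0.50 to 37.0 ± 0.90 FPKM, and PATJ, which links the Crumbs complex to ZO proteins, from 8.85 ± 0.29 to 14.5 ± 0.22 FPKM (SD, n = 3). Their log2 differences were 0.80 (SE 0.04) and 0.65 (SE 0.04). MAGI3 fell by 0.57 (SE 0.07) and AMOT by 0.53 (SE 0.12) on the log2 scale, and both also fell with TPM (limma adjusted p = 0.0156 and 0.0446). Members of one protein family, AMOTL2 and AMOT, thus changed in opposite directions.

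Of 13 genes of the apical polarity complexes, which set the position of the junction belt, 11 were tested, 5 rose and 4 fell (6 and 2 with TPM), with a median of 0.09. Over all tested genes, 25.4% were higher and 34.8% lower (42.0% and 19.8% with TPM). SCRIB, a polarity scaffold, fell from 30.3 ± 1.63 to 13.4 ± 0.96 FPKM, a difference of -1.13 (SE 0.07, limma adjusted p = 2.017e-05). DLG1, its partner in the same complex, rose from 38.4 ± 0.40 to 60.7 ± 2.80 FPKM. PARD6B rose by 0.49 (SE 0.08) on the log2 scale, and PARD6G, of the same family, fell by 0.67 (SE 0.09).

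Of 12 adherens junction genes, all tested, 2 rose and 7 fell, where 25.4% of all tested genes were higher and 34.8% lower, and their median was -0.24 against -0.06. With TPM 4 rose and 1 fell, where 42.0% of all tested genes were higher and 19.8% lower. CDH1, E-cadherin, rose from 61.6 ± 0.39 to 84.8 ± 4.31 FPKM, and NECTIN4 from 5.91 ± 0.83 to 11.6 ± 0.98 FPKM (SD, n = 3). CTNNB1, beta-catenin, fell by 0.52 on the log2 scale (SE 0.04) and by 0.22 with TPM (limma adjusted p = 0.00583). NECTIN3 fell by 0.36 (SE 0.12, limma adjusted p = 0.0426), a call lost with TPM (limma adjusted p = 0.258), without a filter (limma adjusted p = 0.0878) and when any library but the first of dacomitinib was left out (limma adjusted p = 0.0568 to 0.133).

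Membrane partners of claudins and the matriptase system moved in both directions. Of 8 genes, all tested, 2 rose and 3 fell (5 and 2 with TPM), with a median of -0.04. Beside these counts, 25.4% of all tested genes were higher and 34.8% lower (42.0% and 19.8% with TPM). EPCAM, an adhesion molecule that binds CLDN7, was at 71.2, 71.3 and 73.9 FPKM in controls and 48.6, 45.8 and 47.6 FPKM with dacomitinib, a difference of -0.60 (SE 0.04, limma adjusted p = 4.143e-05). The groups did not overlap, and the difference was -0.29 with TPM (limma adjusted p = 0.00118). CD9, a tetraspanin that associates with CLDN1, was at 109.0, 119.8 and 95.78 FPKM in controls and 187.1, 145.6 and 154.5 FPKM with dacomitinib, a difference of 0.58 (SE 0.12, limma adjusted p = 0.00484). Every dacomitinib library was above every control. CD81, a tetraspanin that also binds CLDN1, fell by 0.44 on the log2 scale (SE 0.06), and by 0.16 with TPM (limma adjusted p = 0.0496). SPINT1, an inhibitor of matriptase, rose by 0.67 (SE 0.08).

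Of 16 transcription factors linked to epithelial junction genes, 12 were tested, 4 rose and 3 fell (6 and 0 with TPM), with a median of 0.04. All tested genes were higher in 25.4% and lower in 34.8% of cases (42.0% and 19.8% with TPM). ELF3, an epithelial ETS factor, rose from 23.3 ± 1.79 to 64.0 ± 7.41 FPKM, and SNAI2, a Snail-type repressor of CDH1, from 10.3 ± 0.41 to 18.6 ± 1.64 FPKM (SD, n = 3). ELF3 shares 18.5% of its exonic bases, its antisense gene ELF3-AS1 included, so their reads cannot be fully told apart. TFAP2C and GRHL2, an activator of CLDN4 and CDH1, fell by 0.38 (SE 0.08) and 0.37 (SE 0.06) on the log2 scale. Both falls were lost with TPM (limma adjusted p = 0.347 and 0.253).

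**Figure D4:**
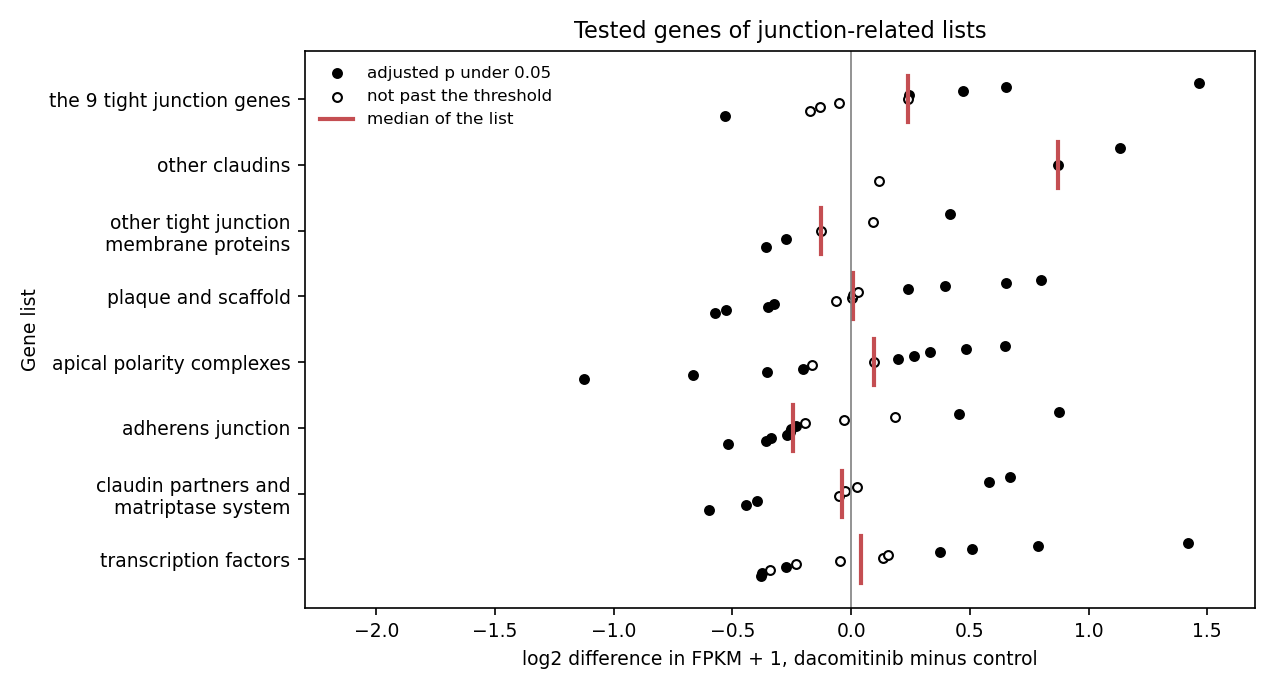
Log2 difference in FPKM + 1, dacomitinib minus control, of each tested gene in the 9 tight junction genes and in 7 related lists, with filled points for an adjusted p under 0.05 and a red bar at the list median. Every list except the other claudins holds called genes on both sides of 0, and the median runs from -0.24 for adherens junction genes to 0.87 for the other claudins, of which 3 were tested.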

How the data were processed

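The submitters' processing notes name build GRCh38 and, without roles, the tools DESeq2 1.20.0, featureCounts, HISAT2, fastp and CASAVA. The authors deposited FPKM per gene with the gene's length. FPKM times length gave a whole number of fragments for 100% of values in every library (tolerance 0.01 fragments). This recovers the fragments and the library size behind each FPKM. That size was below the fragments on genes in controls and above them with dacomitinib, as given with the results. Median-ratio factors computed from the deposited FPKM were 1.0096 in all 6 libraries, so the deposited values were already level by that measure. No source used here gives the strand setting of the counting.

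Groups were compared on log2(FPKM + 1) by limma 3.58.1 (R 4.3.3), its prior variance following the mean, for genes with a mean of at least 1 FPKM, two-sided, adjusted over all tested genes. This scale understates the change of low genes. The procedure was tested on simulated data. Named genes were the 9 genes, tested claudins, and in each related list up to 2 rises and 2 falls past the threshold that were largest. For the nearest profile, 2 genes were named. The members and lists were chosen with earlier results of these data known. Exonic overlap came from GENCODE release 29, whose exon lengths equalled the table's for the genes examined. The alternatives, 16 in all, were other pseudocounts, filters and scalings, limma without trend, voom on recovered fragments, a block on the column number, and leaving out each library. Protein sequences were not used here, and 2 genes of the related lists are not reported here.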

Additional observations from a re-analysis of the deposited data

How the results depend on the processing

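The calls of TJP3, CLDN1, TJP1, F11R and CLDN4 kept their direction and their side of the threshold under all 16 alternatives. Of the 16, median-ratio scaling divided every library by the same 1.0096, so it nearly repeats the main fit and is no separate check. With 1 library left out, the log2 difference ranged from 1.36 to 1.57 for TJP3, 0.56 to 0.72 for CLDN1, 0.45 to 0.51 for TJP1, 0.20 to 0.27 for F11R, -0.62 to -0.46 for CLDN4, 0.16 to 0.34 for OCLN, -0.22 to -0.13 for MARVELD2, -0.19 to -0.08 for CLDN7 and -0.07 to -0.03 for CLDN12. There, 4 to 5 of the 9 genes were higher and 1 to 2 lower.

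CLDN7 changed sign with TPM (0.18, limma adjusted p = 0.0443), quantile normalization (0.13) and voom (0.04), and so did CLDN12 (0.26 with limma adjusted p = 0.0114, 0.13 and 0.12). OCLN passed with TPM (0.57), quantile normalization (0.36) and voom (0.45). MARVELD2 changed sign with TPM (0.12) and passed at a mean of at least 5 FPKM (-0.18, limma adjusted p = 0.0499), which adjusts over fewer genes. CXADR changed sign with TPM (0.0134).

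With TPM, 7 of the 9 genes were higher, where 42.0% of all tested genes were higher and 19.8% lower. Higher and lower counts with TPM were 3 and 0 for other membrane proteins, 7 and 2 for plaque genes, 6 and 2 for polarity genes, 4 and 1 for adherens junction genes, 5 and 2 for claudin partners, and 6 and 0 for transcription factors. With quantile normalization 4 adherens junction genes were higher and 3 lower, as with voom, 1 other membrane protein was lower with either, and 2 polarity genes and 1 transcription factor were lower with quantile normalization. At a mean of at least 5 FPKM 2 of the 9 genes were lower, 1 other claudin was higher, 1 other membrane protein lower, 2 plaque genes lower and 3 polarity genes higher. Without a filter 2 other membrane proteins were higher. The cause was not tested, beyond the shift of all genes given with the results.

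A replicate block on the column numbers left the side of the threshold of all 9 genes as it was (TJP3 1.47, limma adjusted p = 0.00120; CLDN4 -0.53, limma adjusted p = 0.0101). No label says that the numbers pair the libraries. Deviations of same-numbered libraries correlated at 0.027, -0.016 and 0.040 across genes, and those of differently numbered libraries at -0.076 to 0.053. No shared deviation is visible, but with 3 libraries per group this cannot decide whether cultures were paired. Genes called over the whole table were 7883 with the block and 8271 without. The fewest fragments of the 9 genes in a library were 340, for TJP3 in a control. OCLN varied by 14.4% between controls, against the 4.22% that counting alone gives.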
